A study of Drosophila melanogaster with 12 samples.

Results

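Antimicrobial peptides are small secreted proteins that kill or restrain bacteria and fungi. In *Drosophila* the fat body makes most of them after infection, under the control of the Toll and Imd pathways, which end in NF-kappaB family transcription factors, and epithelia such as the gut and the reproductive tract make some of them locally. Fat body tissue is also present in the head, around the brain. The level of their transcripts was followed here in fly heads across a temperature cycle and the day after it.

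The set was defined as the probe sets that represent 10 genes: *AttA* and *AttB* (attacins), *Mtk* (metchnikowin), *Drs* (drosomycin), *DptA* and *DptB* (diptericins), *CecA1* and *CecC* (cecropins), *Def* (defensin) and *Dro* (drosocin). Of these, 6 genes had 1 probe set each among the 13966 probe sets other than controls: *Mtk*, *Drs*, *DptB* and *Def* by the platform annotation, and *DptA* and *Dro* by the probe set name that the RefSeq gene table lists among their synonyms. *AttA*, *AttB*, *CecA1* and *CecC* had no probe set under either naming and were not analysed here. All 6 probe sets passed a filter on signal (a log2 value above 2.93 on more than 6 of 12 arrays), as did 11137 (79.7%) of all probe sets. Among the 6 genes, *DptA* and *DptB* are direct neighbours on chromosome arm 2R in the RefSeq order of genes (assembly Release 6), *Dro* lies on 2R next to *AttA* and *AttB*, *Mtk* and *Def* lie elsewhere on 2R, and *Drs* lies on 3L.

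The heads came from adult *y w* flies in constant darkness. On the CA day the flies were kept at 18 °C (cryophase, arrays CA2, CA6 and CA10, named by the hour) and then at 25 °C (thermophase, CA14, CA18 and CA22). On the AA day the temperature stayed at 25 °C throughout, so that AA2, AA6 and AA10 form the subjective cryophase and AA14, AA18 and AA22 the subjective thermophase. Each array held RNA from the pooled heads of many flies, the labels give no sex, and a difference between arrays cannot be told apart into fewer cells of a type and less RNA per cell. With 1 Affymetrix array per hour, the 3 arrays of a group are different hours, so time of day and noise enter their spread together. The p-values measure only that spread, since nothing in the sources says that the hours were separate cultures.

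Values are log2 expression values, so a difference of 1 is a doubling, and levels of different probe sets are not set against each other. Photoreceptor genes marked the tissue, with *ninaE*, the main rhodopsin, between 12.97 and 13.39 on the 12 arrays. One array, CA22, carried the highest values of 16 of 24 gut marker genes, of 5 of 5 male reproductive tract marker genes and of 4 of 10 fat body marker genes, and the largest difference between the 3' and 5' control probe sets of *eIF-4a* (3.23, against 0.96 to 3.08 on the other arrays), a measure of RNA or labelling quality. For actin that difference was also largest at CA22 (1.94), whereas for *Gapdh* it was largest at AA18 (2.78, against 2.47 at CA22). Results that rest on CA22 are therefore given with and without it.

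All 6 genes had their highest value of the thermocycle day at its last time point, CA22, and on the next day at constant 25 °C their mean was higher in the subjective thermophase than in the subjective cryophase. *Mtk* and *DptB* were above all of their subjective cryophase values on each of AA14, AA18 and AA22. None of these differences passed the adjusted threshold over all probe sets.

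*Mtk* encodes a proline-rich peptide active against fungi and some bacteria, and is induced through both pathways. On the CA day its log2 value was 8.87, 8.50 and 8.64 in the cryophase (CA2, CA6, CA10) and 8.80, 8.58 and 9.96 in the thermophase (CA14, CA18, CA22). On the AA day it was 8.06, 8.75 and 8.41 in the subjective cryophase and 9.45, 9.71 and 9.23 in the subjective thermophase. CA22 stood above all other arrays, the other 5 CA arrays lay within the AA range, and the phases separated without overlap on the AA day only.

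*DptA* and *DptB* encode diptericins, glycine-rich peptides directed mainly at Gram-negative bacteria and induced chiefly through Imd. *DptA* had the widest range of the 6. Its log2 value was 5.11, 4.42 and 4.36 in the CA cryophase and 4.27, 4.36 and 7.17 in the CA thermophase, so that CA22 exceeded the mean of CA14 and CA18 by 2.85, or 7.22-fold. On the AA day *DptA* was 4.11, 5.43 and 4.41 in the subjective cryophase and 5.43, 5.72 and 5.03 in the subjective thermophase, and AA6 lay among the thermophase values. *DptB* was 6.94, 6.70 and 6.54 in the CA cryophase and 6.64, 6.91 and 7.81 in the CA thermophase. On the AA day it was 6.62, 6.98 and 6.82 in the subjective cryophase and 7.40, 8.01 and 7.29 in the subjective thermophase. *DptB* was the only one of the 6 whose highest value was not at CA22 but at AA18, and its AA phases did not overlap.

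*Dro* encodes drosocin, a proline-rich peptide that is also an Imd target. It was 5.32, 5.17 and 5.50 in the CA cryophase and 5.28, 5.28 and 6.57 in the CA thermophase. On the AA day it was 5.20, 6.19 and 5.10 in the subjective cryophase and 5.98, 6.08 and 5.73 in the subjective thermophase. AA6 was thus the second highest array of *Dro* and made its AA phases overlap, as it did for *DptA*.

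*Drs* encodes drosomycin, an antifungal peptide used as the standard readout of Toll, and *Def* encodes defensin, which acts mainly on Gram-positive bacteria. *Drs* was 6.46, 6.50 and 6.58 in the CA cryophase, 6.35, 6.37 and 7.52 in the CA thermophase, 6.34, 6.51 and 5.97 in the AA subjective cryophase and 6.56, 6.37 and 6.59 in the AA subjective thermophase. Without CA22 its range over the remaining arrays was 0.62, the narrowest of the 6 genes. *Def* was 7.04, 6.48 and 6.83 in the CA cryophase, 6.78, 6.89 and 7.46 in the CA thermophase, 6.48, 6.52 and 6.38 in the AA subjective cryophase and 6.98, 6.33 and 7.20 in the AA subjective thermophase. *Def* was lowest at AA18, the array on which *DptB* was highest.

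**Figure D1:**
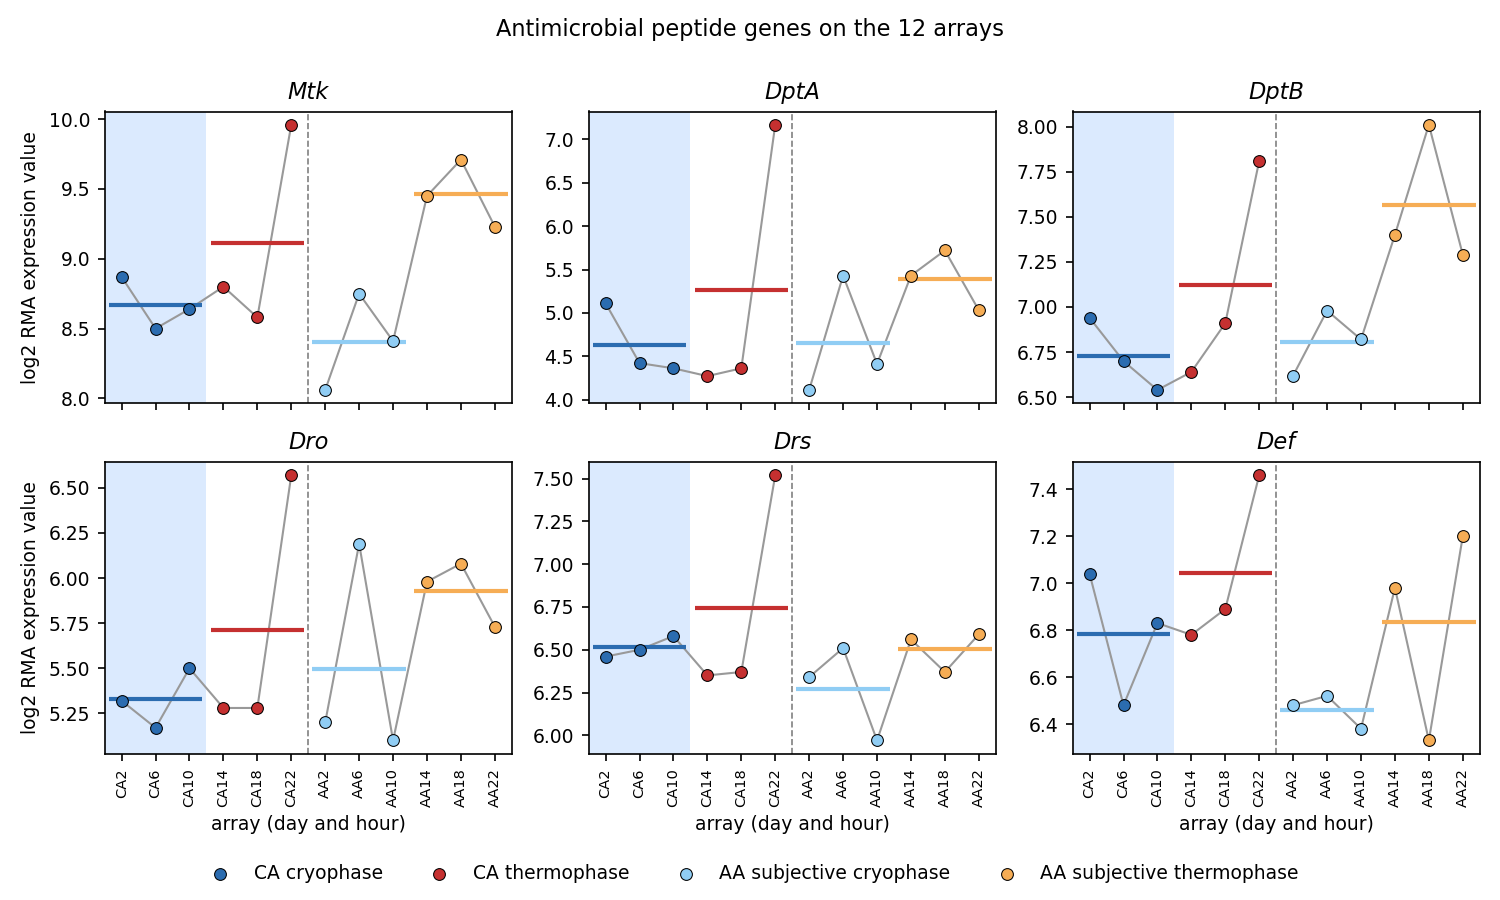
Log2 RMA expression value (vertical axis, its own scale in each panel) of the 6 antimicrobial peptide genes on the 12 arrays (horizontal axis, day and hour). Points are single arrays coloured by group, horizontal bars are group means of 3 arrays, the shaded hours were at 18 °C and the dashed line separates the days. CA22 is the highest CA array in all 6 panels, and the subjective thermophase points of *Mtk* and *DptB* lie above all their subjective cryophase points.

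With CA22 included, the 6 genes were among the most variable transcripts of the head samples. From the lowest to the highest array they spanned between 1.13 (*Def*, 2.19-fold) and 3.06 (*DptA*, 8.34-fold), against a median span of 0.44 over the probe sets past the filter, and each span was wider than that of at least 96.0% of those probe sets. Without CA22 the spans were 0.62 (*Drs*) to 1.64 (*Mtk*), with *DptA* at 1.61 and *Def* at 0.87. Their rank among all probe sets without CA22 was not computed. CA22 held the highest CA value of 6 of the 6 genes and the highest of all 12 values of 5 of them. Over all probe sets past the filter the corresponding shares were 15.4% and 8.8%. The step from the mean of CA14 and CA18 to CA22 was 0.63 for *Def*, 1.03 for *DptB*, 1.16 for *Drs*, 1.27 for *Mtk* and 1.29 for *Dro*.

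The first comparison set 25 °C against 18 °C within the thermocycle. All 6 genes had a higher mean in the CA thermophase, by 0.24 (*Drs*) to 0.64 (*DptA*), with a median of 0.39 against 0.00 over all probe sets tested. For *Mtk* the group means were 8.67 ± 0.18 and 9.12 ± 0.74 (SD, n = 3), and for *DptA* 4.63 ± 0.42 and 5.26 ± 1.6 (SD, n = 3), so that the thermophase spread exceeded the difference. The groups overlapped for all 6 genes, where 4.33% of all probe sets had every thermophase array above every cryophase array. With limma, a moderated linear model over all probe sets, none of the 6 passed a Benjamini-Hochberg adjusted p of 0.05 (0.00898% of all probe sets did) or an unadjusted p of 0.05 (3.87% did). The unadjusted p lay between 0.155 and 0.364 and the adjusted p was 0.995 for each. Without CA22 the differences ran from -0.31 (*DptA*) to 0.06 (*Def*), with 3 genes above 0 and 3 below.

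The second comparison set the same hours against each other at constant 25 °C. All 6 genes again had the higher mean in the subjective thermophase, by 0.23 (*Drs*) to 1.05 (*Mtk*), with a median of 0.59 against 0.01 over all probe sets tested. *Mtk* averaged 8.41 ± 0.34 and 9.46 ± 0.24 (SD, n = 3), a difference of 1.05 (SE 0.29), or 2.08-fold, with an unadjusted limma p of 0.00366 and an adjusted p of 0.883. *DptB* averaged 6.81 ± 0.18 and 7.57 ± 0.39 (SD, n = 3), a difference of 0.76 (SE 0.26), or 1.69-fold, with an unadjusted p of 0.0129 and an adjusted p of 0.883. Every subjective thermophase array lay above every subjective cryophase array for these 2 of the 6 genes and for 4.83% of all probe sets. At the unadjusted threshold 2 of 6 passed, against 5.39% of all probe sets, and at the adjusted threshold 0 of 6, against 0.0%.

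For the other 4 genes the subjective phases overlapped. *DptA* differed by 0.74 (SE 0.62), *Dro* by 0.43 (SE 0.33), *Def* by 0.38 (SE 0.22) and *Drs* by 0.23 (SE 0.25). At AA14, the first subjective thermophase array, *Drs* and *Def* exceeded all of their subjective cryophase values, as *Mtk* and *DptB* did. The margin of *Drs* was small (6.56 against 6.51 at AA6). At AA18 *Drs* (6.37) was back within its subjective cryophase values and *Def* (6.33) was below them. The share of all probe sets with such a value at AA14 was not counted.

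**Figure D2:**
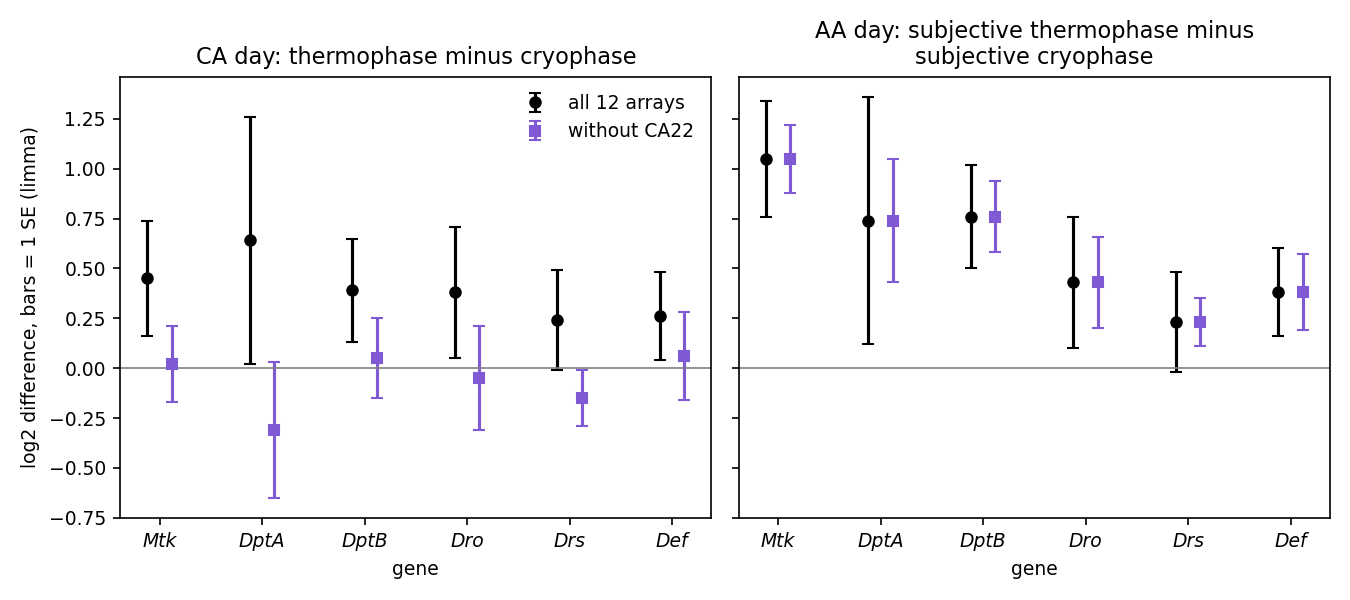
Difference between thermophase and cryophase (vertical axis, log2, bars 1 SE from limma) of the 6 genes (horizontal axis) on the CA day and on the AA day, fitted on all 12 arrays (black circles) and without CA22 (purple squares). The CA differences, 0.24 to 0.64 with all arrays, become -0.31 to 0.06 without CA22, while the AA differences stay at 0.23 to 1.05 and their SE narrows.

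The difference of the phase differences (CA minus AA) was between -0.61 (*Mtk*, SE 0.42) and 0.00 (*Drs*, SE 0.35), with unadjusted p between 0.169 and 0.996. None of the 6 passed the unadjusted threshold, which 3.19% of all probe sets did, or the adjusted one, which 0.0% did. The phase differences of the 2 days were thus not shown to differ. Between the 18 °C arrays and the AA arrays of the same hours the 6 genes differed by -0.17 (*Dro*) to 0.32 (*Def*), 3 above 0 and 3 below, with unadjusted p between 0.176 and 0.975. Here 6.38% of all probe sets passed the unadjusted threshold and 0.0% the adjusted one, and the 6 genes passed neither.

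At 14, 18 and 22 h both days were at 25 °C. Over these hours the CA arrays differed from the AA arrays by -0.45 (*DptB*, SE 0.26) to 0.24 (*Drs*, SE 0.25), and the groups overlapped for all 6 genes. None passed the unadjusted threshold (3.02% of all probe sets did) or the adjusted one (0.0% did). CA22 decided these values. At CA14 and CA18 all of *Mtk*, *DptA*, *DptB* and *Dro* were below all 3 AA subjective thermophase arrays. The share of all probe sets with both of these arrays below those 3 was not counted. Fitted without CA22, the difference was -0.77 (SE 0.19) for *Mtk*, -0.79 (SE 0.20) for *DptB*, -1.08 (SE 0.34) for *DptA* and -0.65 (SE 0.26) for *Dro*, or 1.57- to 2.11-fold lower in CA, with unadjusted p of 0.00193, 0.0021, 0.00874 and 0.0262. *Drs* (-0.15) and *Def* (0.00) showed no such gap. These 4 of 6 genes compare with 1.75% of all probe sets, and at the adjusted threshold none passed (adjusted p 0.997 to 1.0 over the 6, 0.0% of all probe sets).

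The array left out was the highest CA array of each of the 6 genes, so leaving it out lowers the CA thermophase mean by construction. It also takes the spread of CA22 out of the SE that all groups share. For most probe sets CA22 was not the highest CA array. The shares of all probe sets in the fits without CA22 are thus not a like background for the 6 genes. In the same fit without CA22, 3 of 6 genes had an unadjusted p under 0.05 for the AA phase difference (*Mtk*, *DptB* and *DptA*, all higher in the subjective thermophase, against 1.98% of all probe sets). The AA differences themselves did not change, since no AA array was left out, and only their SE did. For *Mtk* the SE fell from 0.29 to 0.17 and the adjusted p was 0.67. For *DptA* the SE fell from 0.62 to 0.31. The same 3 genes had an unadjusted p under 0.05 for the difference of the phase differences, at -1.03, -0.71 and -1.06 (2.59% of all probe sets were negative with such a p), with adjusted p of 0.65 to 0.666. With all 12 arrays the values of these 3 genes were 0.36, 0.35 and 1.34 with the phases moved by 4 h and -0.20, -0.18 and 0.83 with the *eIF-4a* difference as a covariate. Moving the phases set hours 18, 22 and 2 of each day against hours 6, 10 and 14. CA2, at 18 °C, then counted with the thermophase and CA14, at 25 °C, with the cryophase, so the contrast is a different one.

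Over whole days, AA minus CA, the 6 genes differed by -0.26 (*Def*) to 0.26 (*DptB*), 4 above 0 and 2 below, with unadjusted p between 0.118 and 0.87. None passed the unadjusted threshold, which 5.82% of all probe sets did, or the adjusted one, which 0.0% did. With the same hours of the 2 days paired, *Def* had an unadjusted p of 0.0301 (SE 0.10, adjusted p 0.308), where 8.21% of all probe sets were lower in AA with such a p. Without CA22 the AA day was higher by 0.55 for *DptA*, 0.43 for *DptB* and 0.41 for *Dro*, each with an unadjusted p under 0.05 (1.55% of all probe sets) and an adjusted p of 0.994.

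Rhythmicity was scored over both days by F24, taken as the part of the variance that a 24-h wave accounts for once the mean of each day is removed, against permuted orders of the hours. F24 was 0.488 for *DptB*, 0.39 for *Mtk*, 0.322 for *Def*, 0.253 for *Drs*, 0.224 for *DptA* and 0.149 for *Dro*, with unadjusted permutation p between 0.0653 and 0.535 and adjusted p between 0.662 and 0.878. None of the 6 passed by F24, where 7.78% of all probe sets passed an unadjusted p of 0.05 and 0.0% the adjusted threshold. The fitted 24-h cosine peaked between 19.0 h (*Mtk*) and 22.4 h (*Drs*), late in the thermophase. The moderated F test of this fit gave *DptB* an unadjusted p of 0.0206 (adjusted p 0.522), or 0.047 without CA22. For *Mtk* the unadjusted p was 0.0543 (adjusted p 0.612), and for the other genes it was 0.111 (*Def*) to 0.387 (*Dro*). The share of all probe sets with such an unadjusted p by this fit was not counted. When each array was left out in turn, the peak of *Mtk* ranged from 17.6 to 20.5 h and that of *Dro* from 16.6 to 22.1 h, the earliest value in both cases being the one without CA22.

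The 6 genes did not all move together. Across the 12 arrays *Mtk*, *DptA*, *DptB* and *Dro* correlated with each other with Pearson r between 0.795 and 0.913 (Spearman rho 0.734 to 0.909), and without CA22 with r between 0.716 and 0.882. The neighbours *DptA* and *DptB* had r = 0.845 with all arrays and 0.847 without CA22. *Drs* and *Def* correlated with r = 0.747 (0.563 without CA22). Between the 4 genes and these 2, r ran from 0.285 to 0.796 with all arrays and from -0.025 to 0.49 without CA22. The division into 4 and 2 was made after the values were seen and is a description. The points share their arrays and the common normalization.

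**Figure D3:**
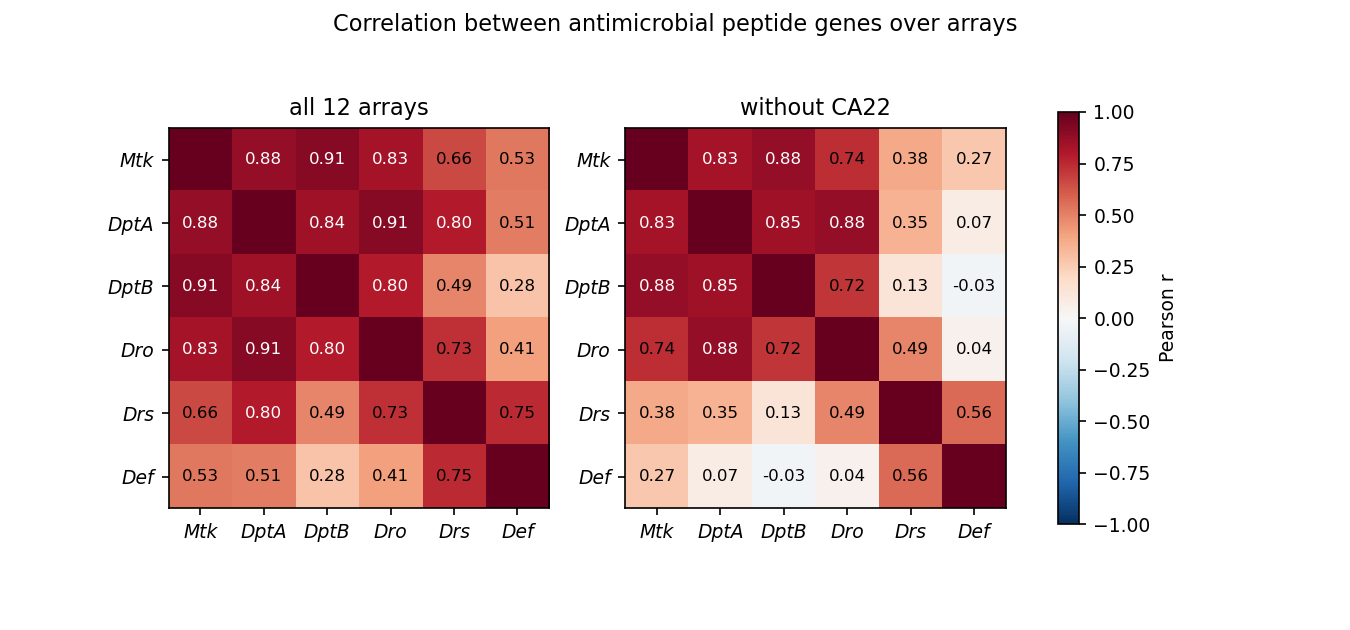
Pearson r between the log2 values of each pair of the 6 genes over all 12 arrays and over 11 arrays without CA22 (colour scale from -1 to 1, r printed in each cell). *Mtk*, *DptA*, *DptB* and *Dro* keep r of at least 0.716 among themselves without CA22, while their r with *Drs* and *Def* is at most 0.49.

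The difference between the groups of 4 and 2 genes was plainest at AA18. There *Mtk*, *DptA*, *DptB* and *Dro* were on average 0.74 above their own means over the 12 arrays, whereas *Drs* and *Def* were on average 0.30 below theirs (a deviation of -0.30). At CA22 both sets were high, with mean deviations of 1.23 and 0.84. At AA2 both were low, with -0.64 and -0.24.

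Other induced peptides were examined through a list of 30 genes that excludes the 10, of which 13 had a probe set and all 13 passed the filter. It holds further attacins, cecropins and drosomycin-like genes, the male duct peptide andropin and the bomanins, short peptides secreted under Toll control. In the AA comparison all 13 had the higher mean in the subjective thermophase, with a median of 0.25. In the CA comparison 4 were above 0 and 9 below, with a median of -0.02 (-0.14 without CA22). At the adjusted threshold 0 passed in each, and at the unadjusted threshold 1 passed in AA and 0 in CA.

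The 4 genes of this list with the smallest F-test p were *BomS5*, *CecB*, *BomBc2* and *AttD*. The bomanin *BomS5* differed by 0.40 (SE 0.18, unadjusted p 0.0521) between the AA phases and by -0.26 (SE 0.18) between the CA phases. The difference of these, -0.66 (SE 0.26), had an unadjusted p of 0.0267 and an adjusted p of 0.997. The bomanin *BomBc2* differed by 0.41 (SE 0.19, unadjusted p 0.0485, adjusted 0.883) between the AA phases and by -0.10 between the CA phases. The cecropin *CecB* (0.07 in AA and -0.07 in CA) and the attacin *AttD* (0.10 and 0.13) did not pass the unadjusted threshold in either comparison. At CA22 the 13 genes were on average 0.31 above their means, and at CA18 and AA18, where *Mtk* was at 8.58 and 9.71, they were at -0.26 and -0.18.

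**Figure D4:**
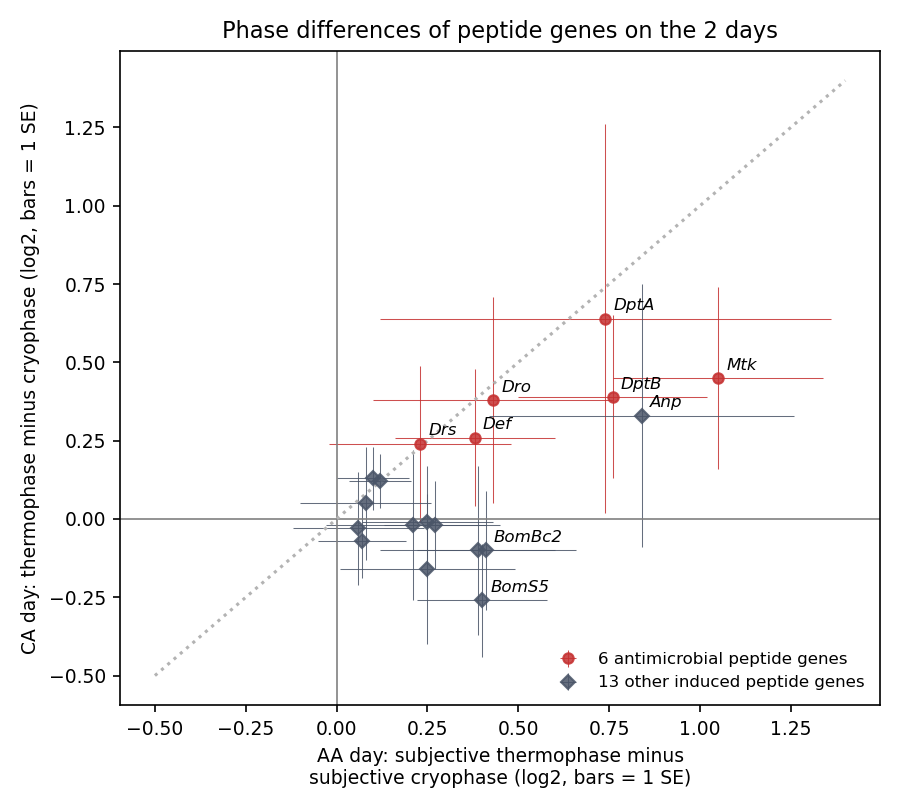
Phase difference on the CA day (vertical axis, log2) against that on the AA day (horizontal axis, log2) for the 6 antimicrobial peptide genes (red circles) and 13 other induced peptide genes (grey diamonds), bars 1 SE, with equal differences on the dotted line. All 19 genes lie to the right of 0 on the AA axis, and 9 of the 13 other peptides lie below 0 on the CA axis.

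Activity of the pathway that controls diptericin and drosocin was not measured, only the transcripts of 13 of 20 listed Imd genes. Their median difference was -0.03 between the CA phases and -0.01 between the AA phases, with 5 and 6 of 13 above 0. None passed the adjusted threshold in either, and 1 of 13 had an unadjusted limma p under 0.05 in each. *Rel*, the NF-kappaB factor of Imd, differed by -0.57 (SE 0.20, unadjusted p 0.0131, adjusted p 0.995) between the CA phases and by 0.01 between the AA phases. *Tab2*, an adaptor of the TAK1 kinase, differed by -0.43 (SE 0.15, unadjusted p 0.0119, adjusted p 0.883) in AA. The kinase-complex subunit *key* differed by 0.23 (SE 0.12) in AA. The secreted peptidoglycan amidase *PGRP-SB1* differed by -0.27 (SE 0.21) in CA and 0.40 (SE 0.21, unadjusted p 0.0775) in AA, and the difference of these was -0.67 (SE 0.30, unadjusted p 0.0419, adjusted p 0.997).

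Of 20 Toll pathway genes 14 were tested, with medians of -0.08 in CA and 0.00 in AA. None passed the adjusted threshold, and 2 had an unadjusted limma p under 0.05 in CA and 0 in AA. The CA phase difference was -0.38 (SE 0.097, unadjusted p 0.00215, adjusted p 0.995) for *psh*, a protease upstream of Spätzle, and -0.30 (SE 0.10, unadjusted p 0.014, adjusted p 0.995) for *cact*, the inhibitor of the Toll-regulated NF-kappaB factors. *Hayan*, a related protease, differed by 0.16 (SE 0.083) in CA, and the factor *dl* by -0.13 (SE 0.13). Over the 12 arrays the mean deviation of the Imd list stayed between -0.11 and 0.12 and that of the Toll list between -0.08 and 0.13, whereas that of the 6 peptide genes ran from -0.51 to 1.10. A list mean hides genes that move in opposite directions, and these transcript levels do not measure the activity of either pathway. The widest single ranges in the Imd and Toll lists were those of *spz* (3.95 to 5.1), *PGRP-SB1* (7.01 to 8.1) and *Rel* (4.23 to 5.3). *Def* ranged from 6.33 to 7.46.

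The JAK-STAT list, a further humoral pathway, had 4 of 15 genes past the filter, with medians of 0.10 (CA) and 0.13 (AA). These were *Stat92E*, its transcription factor (0.22 in CA, SE 0.18), *dome*, its receptor (-0.12), *vir-1*, a virus-induced target (0.11), and *upd2*, a ligand (0.09). None passed the unadjusted threshold in either comparison. Hemocyte, phagocytosis and melanization genes (13 of 18 tested) had medians of -0.18 and -0.08, and none was highest at CA22. At the adjusted limma threshold none passed, and at the unadjusted one 2 did in CA and 1 in AA. Among them the CA phase difference was -0.44 (SE 0.15, unadjusted p 0.0125) for the thioester protein *Tep4*, -0.22 for *Tep2* and -0.16 for *drpr*, an engulfment receptor. *Ppn*, a matrix protein, differed by -0.16 in CA and by -0.37 (SE 0.13, unadjusted p 0.0182, adjusted p 0.883) in AA.

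Marker lists of the gut, the male reproductive tract and the fat body shared the high array CA22 with the 6 genes. At CA22 the mean deviation was 0.90 for 24 gut genes, 1.31 for 5 male reproductive tract genes and 0.48 for 10 fat body genes, each the highest of the 12 arrays. The mean log2 level of the gut list ranged from 5.14 to 6.11 in the CA cryophase, 5.30 to 6.56 in the CA thermophase, 5.20 to 5.38 in the AA subjective cryophase and 5.78 to 6.0 in the AA subjective thermophase. That of the male tract list ranged from 4.03 to 5.29, 4.12 to 6.11, 3.99 to 4.97 and 4.72 to 5.43 in the same order. That of the fat body list ranged from 9.27 to 9.62, 9.07 to 9.90, 8.97 to 9.49 and 9.51 to 9.67. No marker is at 0 on this scale.

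Between the phases, 23 of 24 gut genes were above 0 in both CA and AA (medians 0.54 and 0.39), as were 5 of 5 male tract genes (0.51 and 0.38). Without CA22 the CA medians were 0.15 for the gut list, with 19 of 24 above 0, and 0.20 for the male tract list, with 4 of 5 above 0. In the fat body list 3 of 10 were above 0 in CA and 7 of 10 in AA (medians -0.04 and 0.09), and the CA median was -0.11 without CA22. None of these markers passed the adjusted threshold, and 4 gut genes in each comparison, 1 male tract gene in CA and 1 fat body gene in AA had an unadjusted limma p under 0.05. Over 9 neuron genes the CA and AA medians were -0.12 and -0.10. They were 0.01 and -0.02 over 8 eye genes and 0.00 and -0.10 over 8 muscle genes. No gene of these lists passed the adjusted threshold. Over the 12 arrays the mean deviation of the 6 peptide genes had r = 0.743 with the gut list, 0.798 with the male tract list and 0.822 with the fat body list, and 0.547, 0.653 and 0.758 without CA22. The fat body score leaned on *Cyp4g1*, a cytochrome P450 that ranged from 4.54 to 10.5. Without *Cyp4g1*, a choice made after the values were seen, the score was 0.18 at CA22 and 0.15 at CA6, the next highest array, and its r with the 6 genes was 0.659, or 0.494 without CA22. Members of that list ranged from r = -0.511 (*Yp1*, a yolk protein) and -0.324 (*Fbp1*) to 0.822 (*fit*). By gene, the r with the fat body list was highest for *Mtk* (0.835) and lowest for *DptB* (0.615).

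On several arrays the peptides and these markers parted. At CA2 and CA14 the gut deviation was 0.45 and 0.46 and the male tract deviation 0.49 and 0.51, while the mean of the 6 peptide genes was at -0.02 and -0.29. At AA18, where *Mtk* and *DptB* were high, the gut, male tract and fat body deviations were 0.13, -0.08 and 0.09. The 3' minus 5' differences of the controls disagreed at AA18. That of *eIF-4a* was 1.48, the second lowest of the 12 arrays, and that of actin was 1.17, the lowest. That of *Gapdh* was 2.78, the highest of the 12 arrays. *Anp* (andropin), chosen after its values were seen like *Yp1* and *Fbp1*, had r = 0.795 with the mean of the 6.

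With the mean of the gut and male tract scores as a covariate, the AA phase difference was 0.70 for *Mtk* (SE 0.25, unadjusted limma p 0.015) and 0.56 for *DptB* (SE 0.27, unadjusted p 0.0591). *DptA*, *Def*, *Dro* and *Drs* were then at -0.01, 0.12, 0.10 and -0.04. With the fat body score, a covariate chosen after the data were seen, the AA phase difference was 0.53 for *Mtk* (SE 0.23, unadjusted p 0.0394) and 0.45 for *DptB* (SE 0.27, unadjusted p 0.124). Here *DptA*, *Def*, *Dro* and *Drs* were at -0.36, 0.10, -0.12 and -0.15. This score includes *Cyp4g1*, on which it leaned, and was not fitted without that gene, so it may not stand for fat body content alone. With the *eIF-4a* difference *Mtk* was at 0.80 (unadjusted p 0.0082) and *DptB* at 0.65 (unadjusted p 0.0322), while *DptA*, *Def*, *Dro* and *Drs* were at 0.16, 0.13, 0.12 and -0.03. None of the 6 passed the adjusted threshold for the AA phases with any of these covariates. With the *eIF-4a* covariate the CA phase differences were 0.40 to 1.0, and 4 of 6 genes had an unadjusted p under 0.05 (*Def* 0.0138, *Mtk* 0.028, *Dro* 0.0435 and *Drs* 0.0454, against 2.9% of all probe sets with such a p and a higher thermophase), with adjusted p of 0.734 to 0.879 over the 6. With the gut and male tract covariate they were -0.05 (*DptA*) to 0.21 (*DptB*). With the fat body covariate they were 0.13 (*Drs*) to 0.34 (*DptA*). No gene had an unadjusted limma p under 0.05 in either of these fits. The CA differences thus moved up with the *eIF-4a* covariate, down with the other covariates and to near 0 without CA22. With the phases moved by 4 h the AA difference was 0.13 for *Mtk* and 0.24 for *DptB*. The part that carried-over body tissue, fat body content or RNA quality played in the peptide values beyond these fits was not tested.

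**Figure D5:**
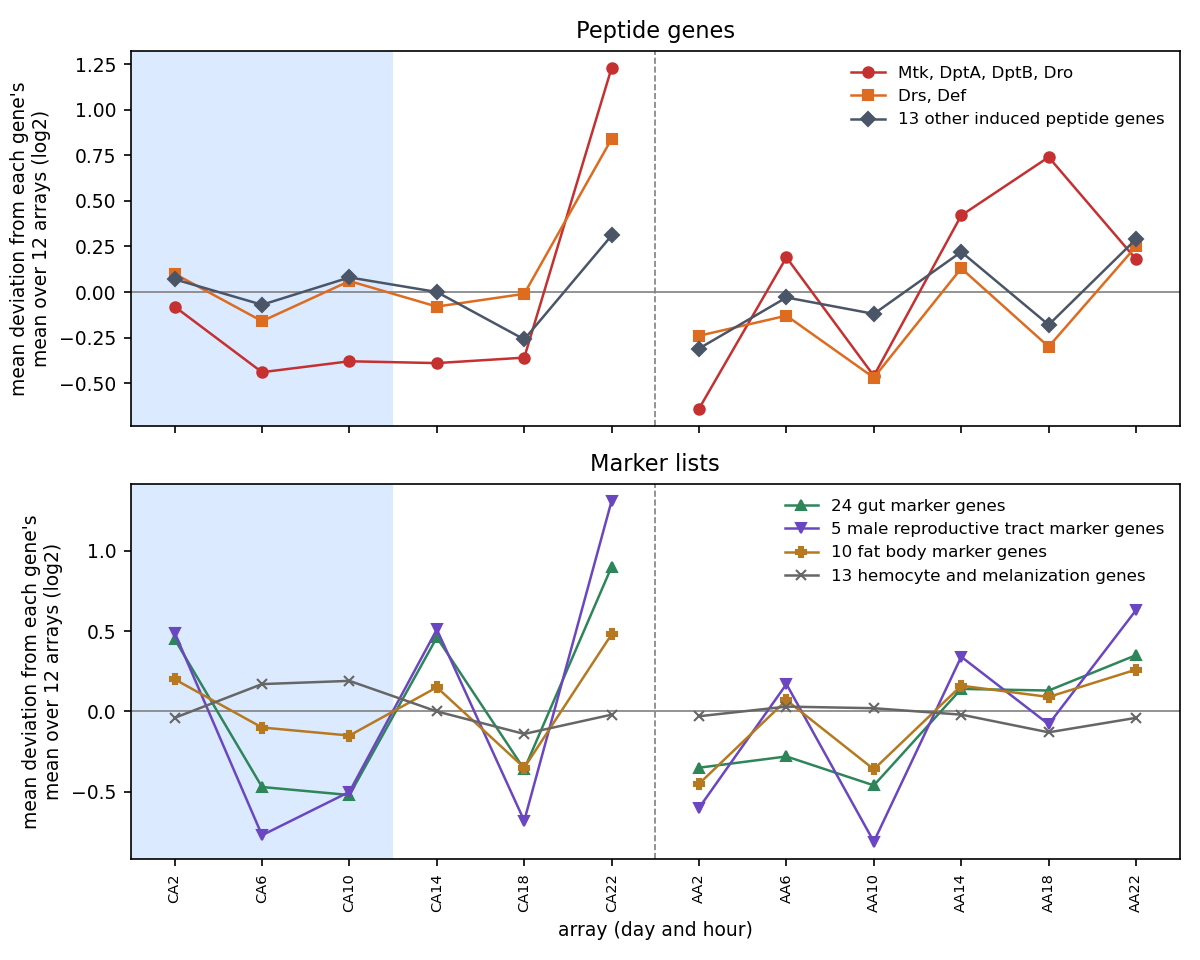
Mean deviation from each gene's own mean over the 12 arrays (vertical axis, log2) by array (horizontal axis, day and hour; shaded hours at 18 °C) for the peptide genes (top) and for gut, male reproductive tract, fat body and hemocyte lists (bottom). *Mtk*, *DptA*, *DptB* and *Dro* reach 1.23 at CA22 together with gut (0.90) and male tract (1.31) markers, and 0.74 at AA18, where those markers are at 0.13 and -0.08.

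The probe sets with a pattern nearest to the mean of the 6 genes, by Pearson r over the 12 arrays, were *nompB* (0.914), *dre4* (0.909), *Cdlc2* (0.879), *CG10911* (0.873), *FASN2* (0.863), *CG5506* (0.854), *LManV* (0.852), *Cnx99A* (0.849), *LysD* (0.846) and *Mur18B* (0.845). All 10 were highest at CA22. Without CA22 their r was between 0.643 (*CG5506*) and 0.916 (*dre4*). *LysD* is a digestive lysozyme of the gut list whose probe set is marked as shared within its gene family, and *FASN2* encodes a fatty acid synthase. By single gene the nearest probe set was *dre4* for *Mtk* (0.925), *CG5727* for *DptA* (0.867), *TTLL3B* for *DptB* (0.848), *Cdlc2* for *Dro* (0.922), *CG14499* for *Drs* (0.891) and *CCT1*, a chaperonin subunit, for *Def* (0.925). *nompB*, *dre4* and *Cdlc2* spanned only 0.39, 0.34 and 0.53 over the arrays.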

How the data were processed

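RNA of *y w* heads from 12 time points was hybridised to Affymetrix Drosophila Genome 1 arrays, and the deposited log2 values were made by the authors with RMA (version not given in the sources used here). Their log base is not stated and was taken from their range. No further normalization was applied. Of 14010 rows, 44 controls were left out. The signal filter asked for values above 2.93, the 20th percentile, on more than 6 of 12 arrays. Names came from the platform annotation, and 20 otherwise unnamed probe sets were named through RefSeq synonyms. For 113 of the 113 probe sets named both ways the gene was the same. RefSeq was used for names and gene order only.

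The 4 group means were fitted in 1 limma model (8 residual and 4.24 prior degrees of freedom; median SE 0.11 for groups of 3), two-sided, with Benjamini-Hochberg adjustment over 11137 probe sets. F24 used 10000 random orders within days. Both were checked on simulated data. Within lists, each gene was represented by its probe set of highest mean, and list scores are means of centred values. Named genes were all members, up to 4 genes per list with the smallest moderated F p, the 10 probe sets nearest to the members' mean and the nearest to each member. The members and lists were chosen with earlier results of these data known. Alternatives are in the closing section. The number of arrays limits the precision. Tools were limma 3.58.1 in R 4.3.3, and pandas 2.3.3, numpy 2.4.6 and matplotlib 3.10.9 in Python 3.11.15. Other time courses of the study were not used here.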

Additional observations from a re-analysis of the deposited data

Results flagged for a closer look

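At CA22 the value stood apart from the other 5 arrays of the CA day, by Dixon's test on groups of 6 (gap to the nearest array, divided by the range of the day), for 5 of the 6 genes. *DptA* was at 7.17 with the next array at 5.11 (gap over range 0.71), *DptB* at 7.81 with the next at 6.94 (0.69), *Dro* at 6.57 with the next at 5.50 (0.763), *Drs* at 7.52 with the next at 6.58 (0.809) and *Mtk* at 9.96 with the next at 8.87 (0.751). *Def* was highest there too, at 7.46 against 7.04 at CA2, within the limit. Of 12 groups of 6 tested, 5 were picked out and all 5 share this array, so they are not separate events. Chance picks out about 1 in 20 groups. The same array held the highest gut (0.90), male reproductive tract (1.31) and fat body (0.48) deviations and the largest *eIF-4a* 3' minus 5' difference (3.23), and their part in the peptide values was not tested. Among these 12 arrays, CA22 is the only one of its hour on the CA day.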

How the results depend on the processing

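In none of the comparisons or alternatives did any of the 6 genes pass the adjusted threshold. The adjusted p over the alternatives was 0.479 to 1.0 for the CA phases, 0.318 to 1.0 for the AA phases and 0.109 to 1.0 for the thermophases of the 2 days. Over all probe sets, the CA phase comparison called 1, and 82 with array weights, 2 with the fat body covariate (added after the data were seen), 0 with only the arrays compared, with the phases moved by 4 h and with the gut and male tract covariate, and 0 to 1 leaving out single arrays. The AA phase comparison called 0, and 3 with only the arrays compared. The cryophases of the 2 days gave 0, and 15 with hour of day as a block. The rhythm test gave 0, and 1 by harmonic regression (1 to 8 leaving out single arrays).

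Signs turned as follows. For the CA phases, *DptA* was -0.04 with array weights and -0.05 with the gut and male tract covariate, and *Drs* was -0.09 and -0.01. Leaving out single arrays gave -0.31 to 1.13 for *DptA*, -0.05 to 0.60 for *Dro* and -0.15 to 0.43 for *Drs*, with the lowest value without CA22. For the AA phases, *DptA* was -0.14 with phases moved, -0.01 with the gut and male tract covariate and -0.36 with the fat body covariate. *Dro* was -0.09 with phases moved and -0.12 with the fat body covariate. *Drs* was -0.03, -0.04 and -0.15 with the *eIF-4a*, gut and male tract, and fat body covariates. For the thermophases of the 2 days, *Def* was -0.12 and *Drs* -0.11 with array weights, *DptA* 0.59, *Dro* 0.05 and *Mtk* 0.14 with phases moved, and *DptA* 0.07 with the fat body covariate. With phases moved, CA2, at 18 °C, took the place of CA14 among these arrays, so that setting does not compare thermophases alone. Leaving out single arrays gave -0.04 to 0.39 for *Def*, -1.08 to 0.37 for *DptA* and -0.15 to 0.44 for *Drs*. The AA phase differences of all 6 genes kept their sign when any array was left out. They ran from 0.88 to 1.23 for *Mtk*, 0.54 to 0.90 for *DptB* and 0.47 to 1.13 for *DptA*. For *Dro* they ran from 0.24 to 0.78, for *Def* from 0.19 to 0.63 and for *Drs* from 0.08 to 0.35. The cause of these changes was not tested. The labels give no replicate numbers, so the only pairing was by hour between the 2 days (hour of day as a block). It called none of the 6 genes at the adjusted threshold, and moved *Def*, AA day minus CA day, from an unadjusted p of 0.118 to 0.0301. The phase comparisons within a day cannot be paired, since each hour has 1 array. The difference of the phase differences, negative or 0.00 for all 6 genes, was 0.23 to 1.34 with phases moved and -0.20 to 0.83 with the *eIF-4a* covariate.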
